A study of Mus musculus with 2756 samples.

Results

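One-day neurons (N1d) were compared with basal progenitors (BP) among cells of the embryonic mouse neocortex collected 24 h after FlashTag injection at embryonic day 12, 13, 14 or 15 (E12 to E15). Members were the 24 h cells whose deposited cluster label began with N1d (633 cells) or with BP (the other cells), which made 801 of the 923 cells of 24 h and of the 2756 cells of the series. FlashTag is a dye taken up at injection by progenitors in division beside the ventricle. Per the labels, the putative primary somatosensory cortex was dissected, the brightest labelled cells were sorted, and each cell was captured on a microfluidic circuit for full-length cDNA sequencing. The labels name no genotype or agent other than the dye, which all groups carried. Litter and animal are not named, so each class and day was 1 sum of cells, and a p-value speaks only of how these sums varied. The labels do not say how the clusters were drawn. Cells of the same injection day and collection time fell into different clusters, so neither of these set the classes apart. The genes behind the labels are therefore not taken as independent evidence, and a p-value describes how steady a difference was over 4 days.

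In the developing neocortex, apical progenitors divide at the ventricle and produce either neurons or basal progenitors. Basal progenitors, also called intermediate progenitors, leave the ventricular surface, express the T-box factor Eomes (Tbr2) and usually divide to give neurons. A newborn projection neuron leaves the cell cycle, migrates outward and starts to build an axon. A cell labelled at the ventricle and collected a day later can therefore be a basal progenitor or a neuron of the same age since its last ventricular division.

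BP sums of E12, E13, E14 and E15 held 78, 47, 8 and 35 cells and 28.0, 20.5, 4.01 and 19.4 M reads. N1d sums held more cells on every day and 46.9, 59.6, 67.01 and 54.2 M reads. The BP sum of E14 was the smallest, and 1 cell gave 14.7% of its reads. E12 and E13 shared a run code, as did E14 and E15, so early and late days cannot be told apart from run. The authors' labels also split both classes into early and late sub-clusters, and this split moved with day: BP.early made 64 of 78, 25 of 47, 0 of 8 and 9 of 35 BP cells from E12 to E15. Of N1d cells, 7 of E12 and 33 of E13 were N1d.late, and 18 of E14 and 2 of E15 were N1d.early.

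The first question was which genes separated the 2 classes on every day. Of 9202 genes tested, 323 differed at an adjusted p under 0.05 (3.51% of those tested). Those higher in N1d made 1.49% and those higher in BP 2.02% of the genes tested. Higher in N1d were genes of the neuronal cytoskeleton, of axon guidance and of neuronal transcription, such as Tubb3, Robo2 and Sox11. Higher in BP were genes of DNA replication and mitosis, basal progenitor factors such as Eomes and Neurog2, and several glycolytic enzymes. All 323 genes had the same direction on 4 of 4 days, which a test paired by day nearly fixes. Of all 9202 genes, 1590 were higher in N1d and 1381 in BP on 4 of 4 days. For 271 of the 323 the levels of the classes did not overlap over the days. Levels did not overlap for 13.4% of all genes tested.

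The number of calls depended on which days were used. Leaving out E12, E13, E14 or E15 gave 1.29%, 0.161%, 8.19% and 0% of genes tested as calls (14, 723 and 0 genes for the last 3), and without E15 1232 genes had an unadjusted p under 0.05. In these refits the called genes kept their direction in 322 of 322, 321 of 321, 321 of 321 and 320 of 320 that were still tested. Each had 1 direction on 4 of 4 days, so leaving out a day could hardly turn it, and this outcome was nearly fixed. With equal numbers of BP and N1d cells, 27 genes passed. Without E14, whose BP sum was thin, 316 genes were higher in N1d (3.58%) and 407 in BP (4.61%), and 321 of the original calls were among them.

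Levels are given below as CPM, the reads of a gene scaled to the size of its library, in the order E12, E13, E14 and E15. For single genes in the BP and N1d sums of 24 h the scaling was by TMM. Apical progenitor and 1 h levels of single genes come from a second TMM scaling over all sums together. Levels in single cells and summed levels of lists were scaled to total reads without TMM, so these scales differ somewhat. Changes are log2 differences, N1d minus BP, with their standard error (SE) from the paired fit.

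The basal progenitor markers were compared first, although they are not taken as an independent check of the labels. Of 16 tested, 7 were higher in BP and none was higher in N1d, with a median log2 change of -1.57 against 0.10 over all genes tested. Eomes, the T-box factor that defines the class (chromosome 9, 118478212-118486132, GRCm38), measured 569, 948, 1527 and 1463 CPM in BP and 144.9, 98.7, 107.6 and 167.8 CPM in N1d. The classes did not overlap, and BP was 8.30 times higher (log2 change -3.05, SE 0.29, adjusted p = 0.00543). The BP level was lowest on E12, the day with the largest share of BP.early cells.

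Neurog2, the proneural factor that starts the neuronal programme of cortical progenitors (chromosome 3, 127633135-127635631), measured 191.1, 431, 764 and 493 CPM in BP. In N1d it measured 77.3, 58.1, 47.2 and 40.5 CPM, below every BP value (log2 change -2.98, SE 0.45, adjusted p = 0.0168). Neurod4, another bHLH factor, was found almost only in BP, with 21.2, 67.3, 116.6 and 51.05 CPM against 0.0645, 0.199, 3.00 and 3.60 CPM (log2 change -6.33, SE 1.06, adjusted p = 0.0233). Its apical progenitor level was lower still, at a mean of 0.0799 CPM (SD 0.0715, n = 4 days).

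Single cells showed what lay behind the sums. The median N1d cell held 3.18, 2.73, 4.02 and 10.2 CPM of Eomes, far under the N1d sums, and its upper quartile was 66.3, 7.61, 54.9 and 185.5 CPM. At least 1 Eomes read was found in 399 of the 633 N1d cells, so low counts were common and most of the reads came from fewer cells. A read was also found in 73.2% of apical progenitors, so a single read did not set the classes apart. In BP the median cell held 298, 652, 787 and 1583 CPM.

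Btg2, an antiproliferative factor long used to mark progenitors about to make neurons, measured 142.97, 211.2, 504 and 354 CPM in BP and 45.95, 51.99, 59.4 and 45.3 CPM in N1d (log2 change -2.43, SE 0.30, adjusted p = 0.00945). Gadd45g, a growth arrest and stress gene, measured 976, 871, 1986 and 1035 CPM in BP and 344, 223, 161.3 and 120 CPM in N1d. Hes6, an antagonist of Hes1, measured 519, 398, 708 and 560 CPM in BP and 222, 109.3, 181.6 and 146.9 CPM in N1d. None of the 3 overlapped between classes. Mfng, a fringe enzyme that modifies Notch, was 3.13 times higher in BP. Its log2 change was -3.47 with late sub-clusters only and turned to 0.18 with early sub-clusters only.

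Other basal progenitor markers did not pass the test. Insm1, a zinc finger factor for basal progenitor delamination, measured 108.3, 398, 561 and 291 CPM in BP and 103.1, 218, 249 and 184.97 CPM in N1d (log2 change -0.69, SE 0.21, adjusted p = 0.122). It was nearly equal on E12. Neurod1, a bHLH factor of late progenitors and young neurons, measured 206.95, 124.6, 140 and 95.7 CPM in BP and 238, 310, 306 and 407 CPM in N1d. That difference pointed the other way and missed the threshold (log2 change 1.19, SE 0.30, adjusted p = 0.0779).

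Markers of apical progenitors were also compared. Of 15 tested, 3 were higher in BP, and all 15 estimates were below 0, with a median of -1.91. Pax6, the homeobox factor of radial glia, measured 389, 234, 633 and 455 CPM in BP and 90.4, 38.4, 99.3 and 124.9 CPM in N1d (log2 change -2.31, SE 0.20, adjusted p = 0.00457). Apical progenitor sums of the same days held 777 CPM (SD 104.4, n = 4). Sox2, a stem cell factor, measured 54.8, 57.7, 78.8 and 67.6 CPM in BP and 11.4, 8.16, 5.65 and 7.36 CPM in N1d, against 120.6 CPM (SD 19.3) in apical progenitors. BP thus lay between N1d and the apical mean for both genes, and neither gene overlapped between BP and N1d. Ddah1, an enzyme that breaks down methylated arginine, was 4.97 times higher in BP. Notch1, the receptor, measured 50.5, 49.2, 186.1 and 112.1 CPM in BP and 14.9, 15.4, 7.71 and 15.0 CPM in N1d, and just missed the threshold (adjusted p = 0.0518). Without E14, 8 of 14 tested apical markers were higher in BP.

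Of the Notch pathway list, 2 of 14 tested genes were higher in BP, Hes6 and Mfng, and none was higher in N1d. Dtx1, a Notch modulator outside this list, was called higher in N1d (log2 change 2.89). The list median was -1.09, but it was -0.66 without E13, -0.68 without E15 and -0.0071 with early sub-clusters only. Nrarp, a feedback inhibitor induced by Notch, measured 41.5, 86.6, 28.3 and 26.8 CPM in BP and 11.1, 19.5, 12.0 and 13.8 CPM in N1d (adjusted p = 0.135).

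**Figure D1:**
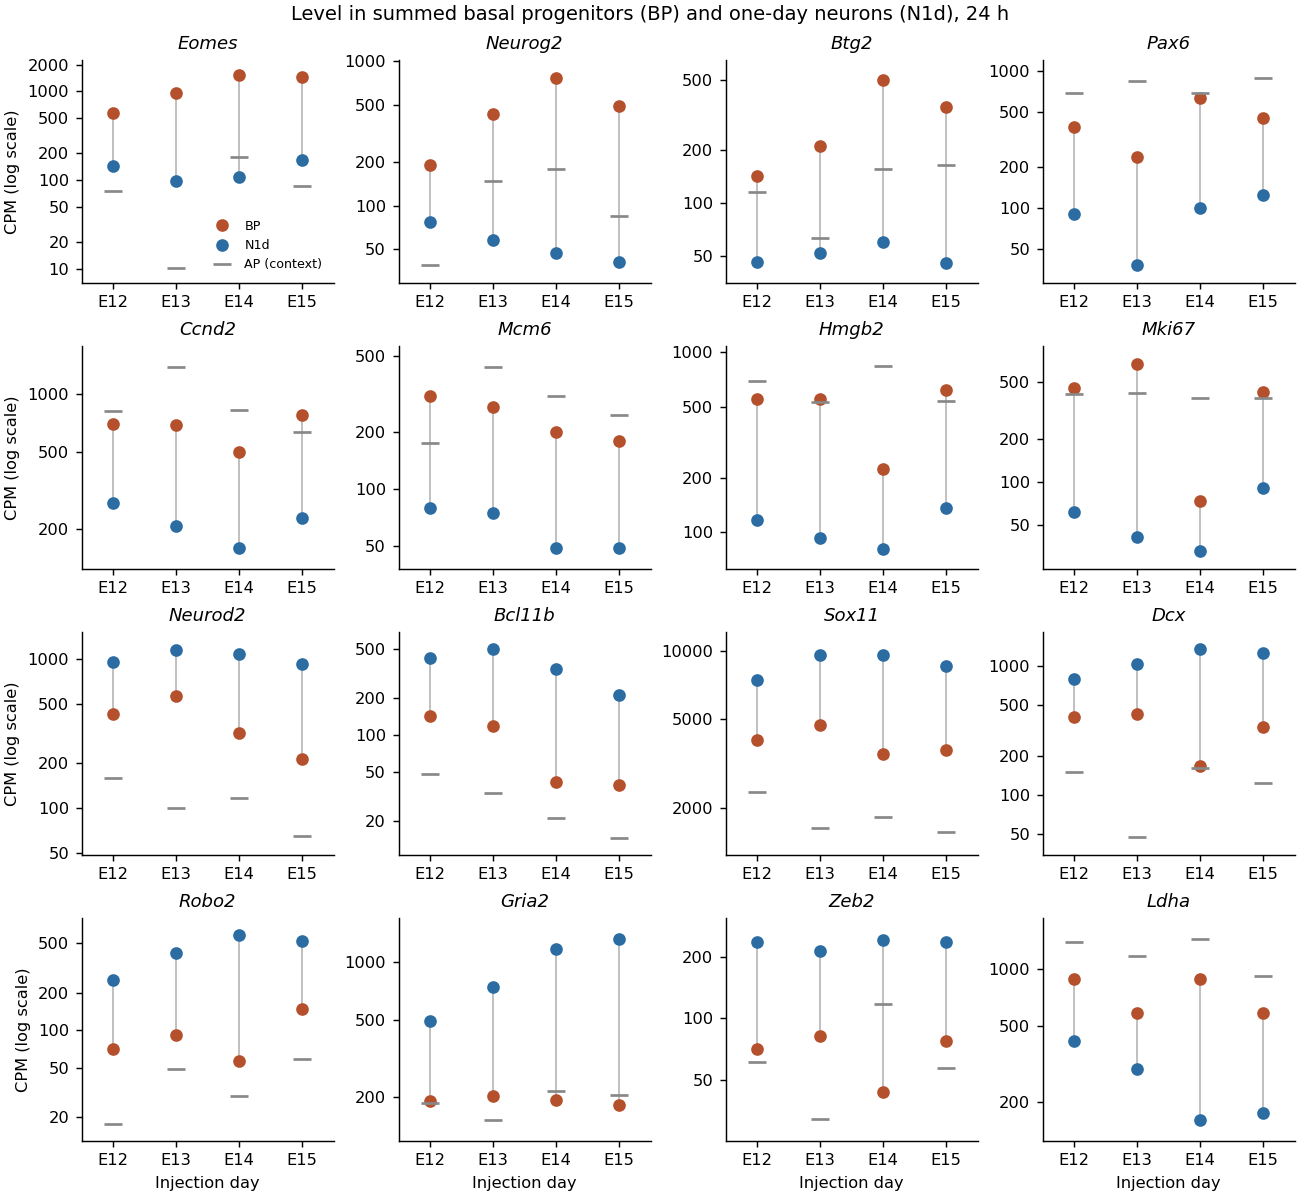
Levels of 16 genes in summed BP (brown) and N1d (blue) cells of 24 h by injection day, in CPM on a log axis; grey dashes give apical progenitors (AP) of the same days as context. Each point is 1 sum of cells and has no error of its own. In the upper 8 panels and in the Ldha panel BP lay above N1d on every day, and in the other 7 panels N1d lay above BP. The BP point of E14 was low for Mki67 (73.8 CPM).

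The next comparison concerned the cell cycle. The list of G1 genes held cyclins and their kinases, which carry a cell through G1, and also E2F and Rb family genes and Cdc25a. Of 13 tested, 3 were higher in BP, Ccnd1, Ccnd2 and Cdk6. Ccnd2, the cyclin that marks basal progenitors and radial glia, measured 700, 693, 502 and 786 CPM in BP and 273, 206.6, 158.7 and 228 CPM in N1d. BP was 3.11 times higher with no overlap (log2 change -1.64, SE 0.13, adjusted p = 0.00449). Ccnd1 measured 130, 79.9, 144.9 and 122.3 CPM in BP and 32.2, 27.2, 27.7 and 12.6 CPM in N1d (adjusted p = 0.0219). Cdk6, a kinase partner of both, was 4.01 times higher in BP. Ccne2, the cyclin of the G1/S step, measured 29.2, 54.7, 140 and 57.2 CPM in BP and 9.98, 5.12, 1.28 and 1.51 CPM in N1d, and missed the threshold (adjusted p = 0.0654).

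Inhibitors of the cycle and genes of cell-cycle exit were fewer. Of 10 tested genes, none was higher in N1d, and the 2 that passed, Btg2 and Gadd45g, were higher in BP. Cdkn1b (p27), the inhibitor that holds young cortical neurons out of the cycle, measured 36.5, 65.2, 81.4 and 68.7 CPM in BP and 27.2, 61.7, 113.9 and 113.9 CPM in N1d. The ranges overlapped, and the log2 change was 0.18 (SE 0.32, adjusted p = 0.803). Cdkn1c (p57), a related inhibitor, measured 167.5, 263, 28.6 and 49.2 CPM in BP and 240, 139.1, 83.3 and 59.2 CPM in N1d (log2 change 0.35, SE 0.39, adjusted p = 0.677). It was higher on E12 and E13 than on E14 and E15 in both classes. Both signs turned in some refits, given in the closing section.

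S phase genes, which make nucleotides and copy DNA, were higher in BP. Of 26 tested, 14 passed, all higher in BP, and all 26 estimates were below 0, with a median of -1.93. Mcm6, a subunit of the replicative helicase, measured 307, 271, 198.6 and 178.3 CPM in BP and 78.7, 74.4, 48.6 and 48.5 CPM in N1d (log2 change -1.94, SE 0.19, adjusted p = 0.00543). Rrm2, the regulated subunit of ribonucleotide reductase, measured 412, 400, 109.5 and 220 CPM in BP and 86.3, 21.0, 13.8 and 16.9 CPM in N1d. Its N1d level was highest on E12. Slbp, which binds histone mRNA, was 3.80 times higher in BP, and Hells, a chromatin helicase, 5.35 times. Without E14, 23 of 26 passed.

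G2 and M phase genes, which build the spindle and drive mitosis, were higher in BP for 9 of 30 tested, with a median of -2.31 and all 30 estimates below 0. On 4 of 4 days BP was higher for 16 of them. Hmgb2, a chromatin protein high in cycling progenitors (chromosome 8, 57511907-57515999), measured 554, 551, 226 and 620 CPM in BP and 117.7, 92.8, 81.1 and 136.7 CPM in N1d (log2 change -2.12, SE 0.21, adjusted p = 0.00543). Mki67, the proliferation antigen, measured 460, 673, 73.8 and 429 CPM in BP and 62.1, 41.2, 33.3 and 91.6 CPM in N1d (log2 change -2.58, SE 0.45, adjusted p = 0.0260). Ube2c, an enzyme of the anaphase promoting complex, measured 542, 522, 30.7 and 190 CPM in BP and 74.7, 82.7, 11.3 and 20.4 CPM in N1d. For Mki67 and Ube2c the BP value of E14 fell within the range of N1d, so the classes overlapped, although BP was higher on each day. Prc1, a spindle midzone protein, was 5.89 times higher in BP and Bub1b, a checkpoint kinase, 8.39 times.

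The E14 sum weighed on this list. The median difference of its members was -2.58, -3.29, -0.11 and -2.19 from E12 to E15, and without E14 28 of 30 passed, all higher in BP. Leaving out E15 gave none of 27 tested past the threshold, with 17 at an unadjusted p under 0.05, and leaving out E13 gave none of 28. Over all genes tested, 0% passed without E15, 0.161% without E13 and 8.19% without E14. Finding none without E15 or E13 was thus not particular to this list.

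Promoters of the G2 and M phase genes are shown because members of the list moved together and many mitotic promoters share a pair of elements. The CHR element (TTTGAA) is bound by the DREAM repressor complex in resting cells and by activators in G2, and CCAAT is bound by NF-Y. The 3 called genes with the smallest p whose last 110 bases before the RefSeq start hold both are printed 5′ to 3′, with matches on either strand in capitals (GRCm38.p6).
Hmgb2, chr8:57511733-57511842, plus strand: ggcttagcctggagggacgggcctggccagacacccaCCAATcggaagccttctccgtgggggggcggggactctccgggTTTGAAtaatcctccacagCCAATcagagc
Prc1, chr7:80294366-80294475, plus strand: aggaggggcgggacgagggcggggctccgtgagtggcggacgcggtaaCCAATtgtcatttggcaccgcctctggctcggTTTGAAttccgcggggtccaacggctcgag
Ube2c, chr2:164769819-164769928, plus strand: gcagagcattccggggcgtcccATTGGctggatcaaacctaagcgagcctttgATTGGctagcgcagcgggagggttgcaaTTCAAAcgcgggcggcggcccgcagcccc

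Each of the 3 had 1 CHR match in this window, and CCAAT matched 2, 1 and 2 times. By GENCODE, Prc1 starts at 80294450 and Ube2c at 164769898, inside the printed windows. The CHR match of Prc1 spans its GENCODE start, and that of Ube2c lies after it. RefSeq held promoters for 27 of the 30 listed genes, in 29 windows of 250 bases before the start. TTTGAA was found in 11 of the 29 (37.9%) against 16.0% of all 32851 windows of the table, and CCAAT in 24 (82.8%) against 33.8%. Both were found in 11 windows (37.9%) against 5.55% of all windows. A match is a run of letters only, and binding was not measured.

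The BP sub-clusters differed in these genes, as a description since the labels may rest on them. In BP.early cells the summed level of G2 and M phase genes had a median over cells of 7779 CPM on E12 (quartiles 5351 and 10208), 11214 CPM on E13 and 10485 CPM on E15. In BP.late cells the medians were 1136, 380, 660 and 432 CPM from E12 to E15, against N1d.late medians of 525, 103.2, 262 and 433 CPM. BP.late was thus above N1d.late on E12, E13 and E14 and level with it on E15. The summed S phase genes had medians of 5717, 6648 and 8709 CPM in BP.early and 1294, 2917, 1348 and 760 CPM in BP.late, against 859, 796, 673 and 887 CPM in N1d.late. Basal progenitor markers ran the other way: 2425, 3205 and 2332 CPM in BP.early and 5837, 6937, 7108 and 5959 CPM in BP.late.

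With late sub-clusters only, on 4 days, no S phase gene of 25 tested and no G2 and M phase gene of 23 tested passed edgeR's test, with 5 and 2 at an unadjusted p under 0.05. The list medians were then -1.60 and -0.73. Of basal progenitor markers, 5 of 16 still passed, with a median of -2.72, and of young neuron markers 5 of 16, with a median of 1.79. With early sub-clusters only, on E12 and E13, 15 of 27 S phase and 24 of 30 G2 and M phase genes passed, with medians of -2.14 and -3.46. Of all genes tested, 2.53% passed with early sub-clusters only and 0.58% (52 genes) with late sub-clusters only. The early fit used 2 days and the late fit 4, so the counts of the 2 fits are not alike. N1d.late held 7 cells on E12. Why fewer genes passed in the late sub-clusters was not tested. The difference between the early and late contrasts was not tested.

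**Figure D2:**
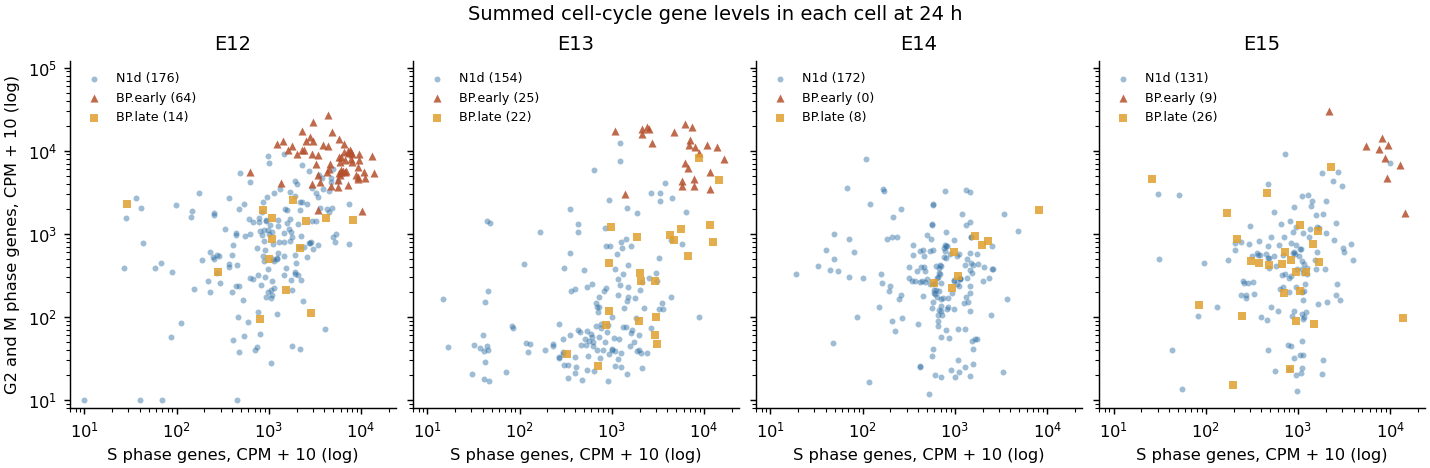
Summed level of S phase genes (x axis) and of G2 and M phase genes (y axis) in each cell of 24 h, in CPM + 10 on log axes, by injection day; blue points are N1d cells, brown triangles BP.early and yellow squares BP.late, with cell numbers in brackets. BP.early cells lay high on both axes, whereas BP.late cells lay lower on the G2 and M axis, with S phase medians of 1294, 2917, 1348 and 760 CPM. No BP.early cell was present on E14.

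Neuronal transcription factors were higher in N1d. Of 23 tested, 8 passed in that direction and none in the other, with a median of 1.06. Sox11, a SoxC factor that switches on pan-neuronal genes (chromosome 12, 27334264-27342574), measured 4016, 4678, 3459 and 3602 CPM in BP and 7432, 9672, 9589 and 8622 CPM in N1d. The classes did not overlap (log2 change 1.17, SE 0.10, adjusted p = 0.00449). Its relative Sox4 measured 945, 1369, 1339 and 1092 CPM in BP and 1147, 1393, 1695 and 1520 CPM in N1d. That was higher in N1d on each day but too little to pass (log2 change 0.28, SE 0.10, adjusted p = 0.195).

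Bcl11b (Ctip2), a factor of subcerebral projection neurons, measured 143.5, 120, 42.0 and 39.3 CPM in BP and 425, 505, 346 and 213.4 CPM in N1d (log2 change 2.27, SE 0.26, adjusted p = 0.00775). Both classes were higher on E12 and E13 than on E14 and E15, where day and run code cannot be told apart. Tbr1, the T-box factor that follows Eomes, measured 149.3, 110.7, 62.7 and 74.1 CPM in BP and 218, 251, 158.4 and 165.2 CPM in N1d (log2 change 1.06, SE 0.22, adjusted p = 0.0460). Zbtb18, a repressor needed for cortical neuron maturation, measured 535, 699, 906 and 759 CPM in BP and 925, 1400, 2063 and 1612 CPM in N1d. Nfib, of the nuclear factor I family, was 2.34 times higher in N1d. Myt1l, a zinc finger repressor of non-neuronal genes, was 6.49 times higher.

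Among bHLH factors, 2 were higher in N1d and 2 in BP of 15 tested. The 2 in BP were Neurog2 and Neurod4, already given. Neurod2, which drives neuronal differentiation, measured 424, 562, 318 and 213.5 CPM in BP and 959, 1143, 1075 and 929 CPM in N1d (log2 change 1.52, SE 0.20, adjusted p = 0.0109). Its BP level stood well over the apical progenitor mean of 110 CPM (SD 39.3). Neurod6 measured 1293, 961, 240 and 624 CPM in BP and 1903, 1878, 2361 and 1560 CPM in N1d, did not overlap, and missed the threshold (adjusted p = 0.0989). Id2, an inhibitor of bHLH factors, was 1.92 times higher in N1d.

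Of the young neuron markers, 11 of 16 were higher in N1d and none in BP, with a median of 1.70, and without E14 15 of 16 were. Tubb3, the neuronal beta-tubulin, measured 778, 642, 364 and 404 CPM in BP and 1543, 1402, 1917 and 1647 CPM in N1d (log2 change 1.63, SE 0.24, adjusted p = 0.0168). Dcx (doublecortin), which steadies microtubules in migrating neurons, measured 402, 423, 167.9 and 339 CPM in BP and 793, 1030, 1347 and 1259 CPM in N1d (log2 change 1.78, SE 0.31, adjusted p = 0.0276). Neither gene overlapped. The median BP cell held 235, 46.7, 18.8 and 97.5 CPM of Dcx, so the BP sums were carried by the upper part of the cells. The median N1d cell held 592, 770, 1226 and 1222 CPM.

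The E-box CAGATG, a sequence that NEUROG and NEUROD proteins can bind, was searched in promoters of the young neuron list, since its members moved together. RefSeq held 11 of the 16 genes, in 17 windows of 250 bases before the start. The E-box was found in 6 windows (35.3%) of 4 genes against 14.4% of all windows. In the basal progenitor list it was found in 1 of 15 windows (6.67%). The 3 called genes with the smallest p that hold it are printed over 70 bases, with the E-box in capitals (CATCTG on the other strand).
Map1b, chr13:99516778-99516847, minus strand: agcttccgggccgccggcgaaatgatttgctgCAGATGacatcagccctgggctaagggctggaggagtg
Neurod2, chr11:98329726-98329795, minus strand: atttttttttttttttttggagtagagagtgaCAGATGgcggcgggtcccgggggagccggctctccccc
Myt1l, chr12:29528206-29528275, plus strand: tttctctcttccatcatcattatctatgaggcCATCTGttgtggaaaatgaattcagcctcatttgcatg

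Genes of the neuronal cytoskeleton were higher in N1d. Of 23 microtubule and growth cone genes, 10 passed in that direction and none in the other, with a median of 1.29. Map1b, a microtubule protein of growing axons, measured 991, 966, 586 and 435 CPM in BP and 2152, 2129, 1551 and 702 CPM in N1d. N1d was higher on each day, but its E15 value lay under the BP values of E12 and E13 (log2 change 1.09, SE 0.13, adjusted p = 0.00873). Dpysl3 and Crmp1, of the collapsin response mediator family in growth cones, were 3.04 and 3.57 times higher in N1d. Tuba1a, the main alpha-tubulin of young neurons, measured 2576, 2450, 1197 and 1314 CPM in BP and 4781, 4593, 4712 and 3867 CPM in N1d. Its reads may be shared with near-identical alpha-tubulins, since the counting is not given in the sources used here.

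Guidance and adhesion genes showed the same direction: 8 of 24 tested were higher in N1d, none in BP, and the median was 1.68. Robo2, a Slit receptor, measured 70.3, 91.5, 56.8 and 147.9 CPM in BP and 252, 415, 580 and 522 CPM in N1d (log2 change 2.28, SE 0.28, adjusted p = 0.00945). Epha5, an ephrin receptor, measured 284, 269, 127.2 and 162.4 CPM in BP and 781, 853, 557 and 452 CPM in N1d (log2 change 1.68, SE 0.16, adjusted p = 0.00517). Cntn2 (Tag1), an adhesion molecule of early axons, measured 271, 135.5, 55.5 and 19.6 CPM in BP and 692, 628, 501 and 292 CPM in N1d. It was lower on each later day in both classes. Chl1, an L1 family molecule, had the largest change toward N1d among called genes whose mean level reached 50 CPM. It measured 100.6, 90.6, 52.6 and 13.9 CPM in BP and 277, 424, 501 and 622 CPM in N1d (8.12 times higher, adjusted p = 0.0480). Plxna4 and Sema6d, a plexin receptor and a semaphorin, were 5.40 and 5.91 times higher in N1d.

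Of 19 radial migration genes, 3 were higher in N1d, Dcx, Rnd2 and Sema3c. Rnd2, a small GTPase that NEUROG2 induces for migration, measured 329, 490, 300 and 181.7 CPM in BP and 902, 685, 791 and 575 CPM in N1d (log2 change 1.25, SE 0.20, adjusted p = 0.0219). It was thus higher in N1d while Neurog2 itself was higher in BP. Sema3c measured 55.4, 102.4, 181.7 and 437 CPM in N1d, and Flrt3, an adhesion molecule of migrating neurons, missed the threshold (adjusted p = 0.0758).

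Genes of epithelial junctions and delamination were split. Of 12 tested, Zeb2 was higher in N1d, and Zeb1 and Ctnna1 were higher in BP. Zeb2 measured 71.5, 82.5, 43.9 and 77.6 CPM in BP and 235, 211.6, 242 and 235 CPM in N1d, with no overlap (log2 change 1.78, SE 0.25, adjusted p = 0.0130). Zeb1, its paralog, measured 76.1, 110, 116.9 and 226 CPM in BP and 37.0, 34.2, 51.03 and 95.7 CPM in N1d. Its ranges overlapped across days, but BP was higher on each (log2 change -1.29, SE 0.25, adjusted p = 0.0387). Ctnna1, alpha-catenin of adherens junctions, was 3.49 times higher in BP. Its partner Ctnnb1 differed less (log2 change -0.41, SE 0.13, adjusted p = 0.131).

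Genes for synapses and excitability were compared next, beside 1.49% of all genes tested that were higher in N1d. Of 17 synapse and transmitter genes, 2 were higher in N1d, and of 16 channel and receptor genes 2, although 14 estimates in each list were above 0. Snap25, a fusion protein of synaptic vesicles, measured 25.4, 19.7, 25.4 and 14.4 CPM in BP and 161.5, 150, 96.7 and 91.2 CPM in N1d (log2 change 2.55, SE 0.32, adjusted p = 0.00945). Rab3a, a vesicle GTPase, was 3.48 times higher. Gria2, an AMPA receptor subunit, measured 190.6, 203.6, 192.2 and 182.2 CPM in BP and 495, 743, 1157 and 1312 CPM in N1d (log2 change 2.17, SE 0.25, adjusted p = 0.00817). BP stayed near the apical progenitor mean of 190 CPM (SD 27.8, from the second scaling), and N1d was higher on each later day. Kcnq3, a potassium channel subunit, missed the threshold (adjusted p = 0.0924). Of the markers of older, four-day neurons, 2 of 6 tested were higher in N1d, Snap25 among them, and none was higher in BP.

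RNA-binding and splicing factors passed for 4 of 19, all higher in N1d. Celf4 measured 81.2, 87.5, 52.1 and 78.2 CPM in BP and 241, 305, 165.9 and 269 CPM in N1d (log2 change 1.71, SE 0.19, adjusted p = 0.00675). Elavl3 (HuC), a neuronal RNA-binding protein, was 2.52 times higher and Celf2 1.80 times. Khdrbs2, a splicing regulator, measured 27.2, 9.74, 1.32 and 5.02 CPM in BP and 101.1, 97.2, 76.9 and 41.1 CPM in N1d.

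Of 22 chromatin regulators tested, 1 passed, and the list median was -0.14. That gene was Smarcd3, a subunit of the BAF remodelling complex, at 110, 107.8, 78.8 and 40.6 CPM in BP and 231, 232, 270 and 275 CPM in N1d (adjusted p = 0.0355). Actl6b, the subunit specific to neuronal BAF, measured 5.70, 5.07, 1.85 and 0.513 CPM in BP and 28.0, 39.8, 20.7 and 17.6 CPM in N1d, without overlap but past no threshold (adjusted p = 0.0758). Chd7, a remodeller of progenitors, measured 223, 320, 486 and 342 CPM in BP and 132.1, 148.8, 67.1 and 43.96 CPM in N1d (adjusted p = 0.0566).

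Glycolytic enzymes passed for 6 of 15, with 5 higher in BP and 1 in N1d. The 2 lactate dehydrogenase subunits went opposite ways. Ldha, the subunit that favours making lactate, measured 891, 588, 892 and 588 CPM in BP and 419, 301, 161.3 and 175.09 CPM in N1d (log2 change -1.56, SE 0.25, adjusted p = 0.0219). Ldhb, the subunit that favours pyruvate, measured 784, 562, 785 and 908 CPM in BP and 1104, 887, 1507 and 1291 CPM in N1d (log2 change 0.65, SE 0.11, adjusted p = 0.0269). Ldha did not overlap, whereas for Ldhb the N1d value of E13 lay under the BP value of E15. Apical progenitors had a mean of 1230 CPM of Ldha (SD 238) and 680 CPM of Ldhb (SD 129.1). Gapdh was 1.66 times higher in BP, and Pgam1 1.84 times. Both have many processed copies in the genome whose reads may be shared.

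**Figure D3:**
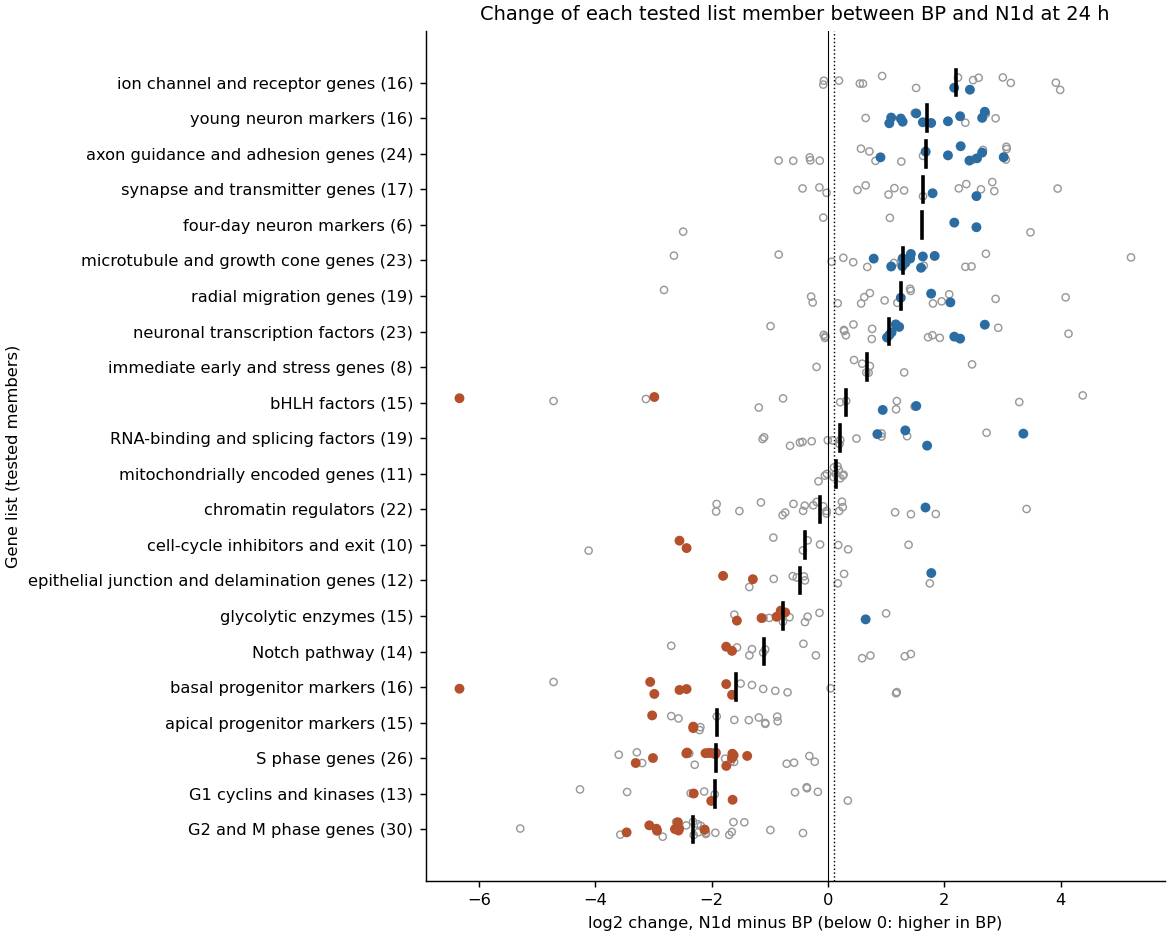
Log2 change (N1d minus BP) of each tested member of the gene lists with 5 or more tested members, with the number tested in brackets; filled points passed the threshold (blue higher in N1d, brown higher in BP), black bars are list medians and the dotted line is the median of all genes tested (0.10). Cell-cycle and progenitor lists lie to the left, with medians to -2.31, and neuronal lists to the right.

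Ranked by size of change among called genes whose mean level reached 50 CPM, up to 12 genes in each direction were taken. Besides those above, N1d was led by Fat3, an atypical cadherin (7.75 times), Dtx1, a Notch modulator (7.40 times), Cers6, a ceramide synthase (6.48 times), Pdzrn3, an E3 ligase (6.22 times), and Nos1, neuronal nitric oxide synthase (5.97 times). Pdzrn3 measured 15.4, 20.3, 65.3 and 26.0 CPM in BP and 78.6, 186.7, 314 and 172.1 CPM in N1d, and was highest on E14 in both classes.

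BP was led by Shcbp1, a spindle and midbody protein, with 106.1, 98.8, 154.1 and 64.6 CPM against 17.7, 13.2, 2.46 and 2.06 CPM (16.9 times). Esco2, which acetylates cohesin in S phase, was 16.5 times higher, and Pbk, a mitotic kinase, 14.1 times. Gpx8, a peroxidase of the endoplasmic reticulum, followed at 13.1 times, then Cdk1, the mitotic kinase, at 11.0 times, Tcf19 at 10.5 and Rad51ap1 of DNA repair at 9.91. Hist1h2ap was 12.5 times higher, but histone genes are near-identical copies whose reads may be shared. Rhbdl3, a rhomboid family protein, measured 53.02, 147.002, 138.02 and 113.2 CPM in BP and 16.2, 12.3, 8.29 and 13.1 CPM in N1d. Tfap2c, an AP-2 factor that acts upstream of Eomes, measured 75.01, 131.1, 109.5 and 83.8 CPM in BP and 15.5, 12.5, 7.34 and 11.3 CPM in N1d (8.67 times higher in BP, adjusted p = 0.0115). Shcbp1, Pbk and Tfap2c did not overlap.

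Markers of other cell types were low where the deposited counts held them. The summed level of 12 interneuron markers ran from 13.9 to 66.7 CPM in BP and from 11.2 to 34.1 CPM in N1d. Endothelial, microglial and blood markers summed to 1.99 to 16.7 CPM in BP and 2.09 to 15.2 CPM in N1d, with 6 of 13 listed genes present. Absent genes, such as Cldn5 and Hbb-bs, could not be judged. Astrocyte and oligodendrocyte markers (7 of 11 present) summed to 24.9 to 72.6 CPM in BP and 6.48 to 22.2 CPM in N1d. Cajal-Retzius markers (6 of 8 present) summed to 0.249 to 16.7 CPM in BP and 40.8 to 110.6 CPM in N1d, so this list moved with the classes. Of its genes, Reln measured 7.53, 7.94, 0 and 0.666 CPM in BP and 28.8, 47.4, 8.74 and 27.8 CPM in N1d, and Nhlh2 was likewise higher in N1d on each day (adjusted p = 0.119 and 0.0852). Without E14 both passed. Ndnf was listed at 0 in all 8 sums. The part of these cells in the neuronal results was not tested.

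Quality measures differed between the classes on each day. The median cell had fewer reads in N1d than in BP (mean of 4 day medians 335325 against 476100, difference -140776, SD 46458). At an equal depth of 100000 reads per cell, N1d cells still had fewer detected genes (3172 against 3568). Cells under this depth were left out, 29, 1, 21 and 4 in N1d and 5, 0, 0 and 1 in BP from E12 to E15. The mitochondrial share was higher in N1d (3.78% against 3.33%). Each held on 4 of 4 days, with an exact two-sided sign-flip p of 0.125, the smallest that 4 pairs allow. None of 11 mitochondrially encoded genes and none of 8 immediate early and stress genes passed edgeR's test, with list medians of 0.13 and 0.68. Their part in the gene results was not tested.

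Whether the difference between N1d and BP drifted with injection day was tested as a slope. No gene passed (0% of 9202, lowest adjusted p 1.00), and 130 had an unadjusted p under 0.05. DESeq2 called 6, and edgeR without E14 called 38. The levels by day given above are therefore a description.

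Cells of 1 h at E15, which the comparison did not use, held 32 BP cells (10.1 M reads) and 10 N1d cells (2.49 M reads) in 1 sum each. They carried another run code than the cells of 24 h. Their classes came from the same deposited labels. The shares below are therefore not taken as independent evidence. The values are a description, since each class had 1 sample. At 1 h the 12 interneuron markers summed to 230 CPM in BP and 3.22 CPM in N1d, against 13.9 to 66.7 CPM in BP at 24 h. Of the genes called higher in N1d at 24 h, 90.5% were higher in N1d at 1 h as well, against 42.03% of all genes tested. Of those called higher in BP, 79.03% were higher in BP at 1 h, against 57.5%, and 39 were higher in N1d. Eomes measured 964 CPM in BP and 237 CPM in N1d, Neurog2 378 and 4.98 CPM, Neurod2 265 and 861 CPM, and Robo2 73.8 and 950 CPM.

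Mitotic genes were mixed at 1 h. Of the 30 G2 and M phase genes, 9 were higher in N1d. Of those called at 24 h, Ccnb1 and Aurka, a mitotic cyclin and a spindle kinase, were higher in BP at 1 h (log2 ratios -3.75 and -2.02), as was Top2a (-0.52). At 1 h Ube2c measured 91.2 CPM in BP and 304 CPM in N1d, Prc1 32.1 and 174.2 CPM, Hmgb2 150 and 329 CPM, and Mki67 114.3 and 107.5 CPM. The summed G2 and M phase genes held 1220 CPM in BP and 1653 CPM in N1d, although most members were not higher in N1d. Of the 32 BP cells, 30 were BP.late. The largest N1d cell gave 15.1% of the reads of its sum.

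**Figure D4:**
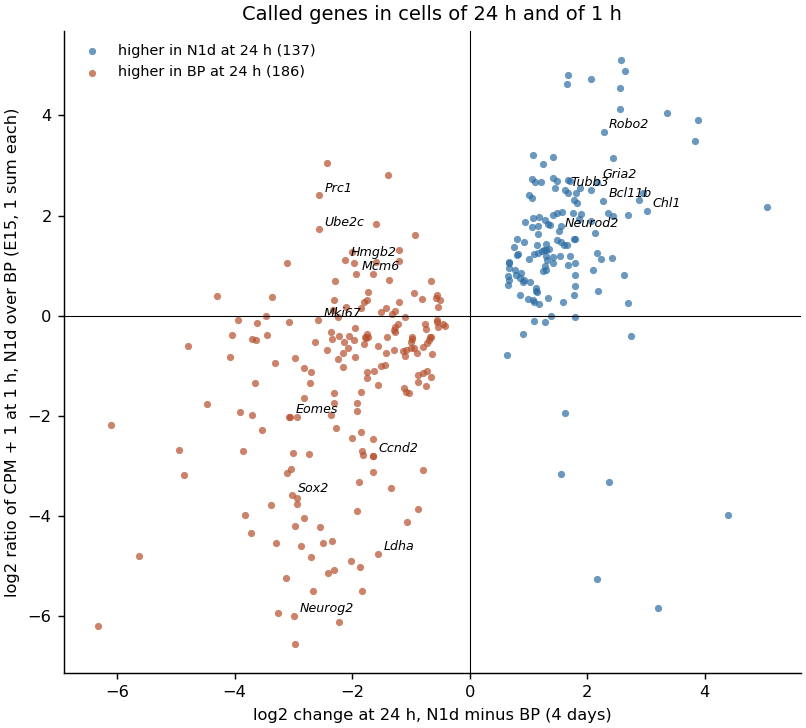
Called genes by their log2 change at 24 h (x axis, 4 days) and by the log2 ratio of CPM + 1 between N1d and BP at 1 h, E15 (y axis, 1 sum each, no error); blue genes were higher in N1d and brown genes higher in BP at 24 h. Most blue genes lie above 0 on the y axis (90.5%), and 39 brown genes, Ube2c and Prc1 among them, lie in the upper left, while most brown genes (79.03%) lie below 0.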

How the data were processed

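Full-length cDNA of single cells was sequenced, and the authors deposited a table of read counts per gene and cell. Per the submitters' processing notes, GRCm38, TopHat2 2.0.13 and UMI-tools were used, with no role given. The counter, annotation, cell filters and doublet treatment are not given in the sources used here. Column totals were 0.9933 to 1.0 of the labelled read number, so the deposited counts are reads, not molecules. The columns of 1801 cells were not used.

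Counts were summed per class and injection day into 8 sums, with cell classes taken from the authors' labels. Genes that reached 10 CPM in 3 or more sums entered edgeR's (4.0.16, R 4.3.3) quasi-likelihood test, with TMM scaling, day as a block, class as the tested term and Benjamini-Hochberg adjustment over all genes tested at 0.05. Biological variation over sums was 59.06%. Sums of the same day deviated together (correlations 0.157 to 0.270, other days at most 0.0742), and the pairing comes from the shared day and run code. The slope with day used 2 residual degrees of freedom. limma 3.58.1 and DESeq2 1.42.0 were alternatives, and scripts were tested on simulated data.

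Named genes were the 12 with the largest change per direction (mean of at least 50 CPM, same sign on 4 days), up to 4 per list by p, and 21 chosen by hand, of which some are not reported here. The members and lists were chosen with earlier results of these data known. Promoter windows are from RefSeq and gene positions from GENCODE, both GRCm38. Other alternatives were filters, size factors, equal cells or reads, sub-clusters and single days left out.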

Additional observations from a re-analysis of the deposited data

Results flagged for a closer look

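Among 180 groups of 4 daily sums of the named genes, 7 held 1 day that stood apart from the other 3. Chance gives this in about 5% of groups, so the number was not above chance. In N1d, E12 stood above the other days for 3 cell-cycle genes: Hist1h2ap at 37.7 CPM (others 4.49 to 6.93), Cdk1 at 60.2 CPM (others 3.55 to 12.7) and Rrm2 at 86.3 CPM (others 13.8 to 21.0). E14 of N1d stood below for Notch1 at 7.71 CPM (others 14.9 to 15.4) and Hells at 13.5 CPM (others 27.1 to 28.1), and above for Flrt3 at 308 CPM (others 85.4 to 116.5). In BP, Gadd45g stood apart on E14, the sum of 8 cells, at 1986 CPM (others 871 to 1035).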

How the results depend on the processing

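Counts of calls moved with the settings. Against 3.51% of genes tested, DESeq2 called 15.9% (780 higher in N1d and 682 in BP), no filter on low counts 1.00% (83 and 80), a filter of 50 CPM 10.9% (258 and 258), and limma with equal weight per cell 6.05% (294 and 263). Equal cell numbers gave 0.296% (16 and 11), late sub-clusters only 0.580% (32 and 20), early sub-clusters only 2.53% (65 and 160), E12 and E13 only 5.90% (225 and 303), and E14 and E15 only 0.262% (13 and 10). Leaving out a day gave 0% to 8.19%, with 0 to 316 genes higher in N1d and 0 to 407 in BP. Without the replicate block 2.93% were called (270 genes), so the paired fit made slightly more calls. DESeq2's size factors in edgeR gave 346 calls and equal reads per cell 398. For the change with day, DESeq2 called 6 genes and the fit without E14 38, and leaving out another day gave 0. The cause of these moves was not tested. Of the genes named, the sign of the log2 change turned for 3. Mfng gave 0.18 with early sub-clusters only. Cdkn1b gave -0.66 with early sub-clusters only, -0.24 with E12 and E13 only, and -0.0096 to 0.38 with a day left out. Cdkn1c gave -0.27 with late sub-clusters only, -0.19 with E12 and E13 only, and -0.036 to 0.77 with a day left out. BP of E14 rests on 8 cells.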

Other observations

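At 1 h after injection at E15 the 10 N1d cells held 9459 CPM of summed young neuron markers against 2676 CPM in the 32 BP cells, and 1245 against 3593 CPM of basal progenitor markers. Summed S phase genes held 1256 CPM in N1d and 1009 CPM in BP, while 9 of the 28 members were higher in N1d. The median mitochondrial share of these cells was 9.70% in N1d and 5.55% in BP, above the 24 h means. Each class was 1 sum, so these are values of those libraries only.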
